A study of Mus musculus with 33 samples.

Results

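The genes described here belong to the Bcl2 family of apoptosis regulators. They are Bbc3, Pmaip1, Bcl2l11, Bid and Bik, which encode BH3-only proteins, Bax and Bak1, which encode effectors, and Bcl2, Bcl2l1 and Mcl1, which encode guardians. They were chosen by symbol. All 10 were found among the 37620 genes of a mouse reprogramming study, and 9 passed the filter on low counts in every fit. Bik did not, and its counts are given with no test in the filtered fits.

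The family decides whether the outer membrane of the mitochondrion stays closed. Guardians hold Bax and Bak1 inactive. BH3-only proteins bind the guardians or switch the effectors on, and active effectors open pores through which cytochrome c leaves to activate caspases. Myc is known to sensitise cells to this route, and p53 induces several members.

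The study drove mouse cells towards pluripotency with 3 factors, Sox2, Klf4 and Myc (SKM). RNA-seq followed secondary SKM MEFs (embryonic fibroblasts) and secondary SKM NPCs (neural progenitor cells) on days 0, 2, 4, 8 and 12 of reprogramming, with 2 libraries in each of the 10 groups. It also covered 1 library each of SKM iPSC, pluripotent cells obtained with these factors, and of R1 ESC, an embryonic stem cell line. MEF libraries of days 4, 8 and 12 and NPC libraries of days 8 and 12 have GFP in their titles, and what GFP reports is not stated in the labels. Per the labels' protocols, MEFs grew in DMEM with serum, reprogramming cultures in medium for ES cells with doxycycline added, and RNA of cultured and of sorted cells was extracted with different reagents. Day, medium, sorting and extraction may change together and cannot be told apart. For NPC days 2 and 4 a second label field names an earlier day, and the day in the title was used. The column of SKM iPSC was identified by elimination. Whether counting used strand is not stated in the sources used here, so reads from antisense genes cannot be told apart. Nothing in the labels makes the replicates separate cultures, so the p-values may reflect technical spread alone.

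The 22 libraries held 15902838 to 20102260 counts. Levels are in CPM, counts scaled to the size of the library with TMM factors, which correct for its composition. They are not per length and are not compared between genes. Changes are log2 fold changes ± SE from edgeR's quasi-likelihood test, called at a Benjamini-Hochberg adjusted p under 0.05 over all genes of the fit. In bulk RNA, fewer cells of a type and less RNA per cell cannot be told apart. The summed level of 5 fibroblast markers was 14771 to 26909.7 CPM in MEFs on day 0 and 643 to 761 CPM on day 2, and that of 5 neural progenitor markers was 2847 to 2848 CPM in NPCs on day 0 and 113 to 232 CPM on day 2. Pluripotency markers summed to 489 to 509.7 CPM on MEF day 12 and 596 to 709.9 CPM on NPC day 12, against 4181 CPM in SKM iPSC and 5983 CPM in R1 ESC. Keratinocyte markers summed to 1002 to 1310.2 CPM on MEF day 8 and 769 to 771 CPM on NPC day 8, against 4.83 to 14.6 CPM on MEF day 0 and 1.58 to 1.73 CPM on NPC day 0. Macrophage markers summed to 56.4 to 88.2 CPM on MEF day 0, 5.97 to 9.59 CPM on MEF day 2 and 23.1 to 71.6 CPM on MEF day 12. On NPC day 0 they summed to 4.29 to 4.96 CPM and on NPC day 12 to 37.5 to 38.9 CPM. The part of these markers in the results was not tested. The column headings add the word feeder to NPC day 4 replicate 1 and nofeeder to replicate 2, and fibroblast markers summed to 1606 CPM in replicate 1 and to 70.6 CPM in replicate 2. The MEF day 0 libraries differed by a median of 0.45 log2 units per gene, against 0.14 for the NPC day 0 libraries, and 4 tested members (Bbc3, Pmaip1, Bcl2l11 and Bid) differed by more than 2-fold between them.

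RefSeq promoter windows of 300 bases around transcript starts (build GRCm38.p6) matched 8 of the 10 members, with 13 windows in all. They were searched on both strands for CACGTG, the E-box bound by Myc with Max, for GGGNGNGGC, a Klf-type box, and for AACAAT, the core of Sox sites. The E-box was in windows of 2 members, Bbc3 and Bax, and in windows of 8.09% of the 27025 genes with a window. The Klf-type box was in windows of 4 members, Bbc3, Bax, Bcl2l11 and Bid, and of 28.2% of these genes. The Sox core was in windows of 2 members, Bbc3 and Bcl2l11, and of 12.2% of these genes. By window rather than by gene, the shares were 7.15%, 25.8% and 10.7% of 32851 windows. The windows of Bak1, Bcl2, Bcl2l1 and Mcl1 held no match. Shown are Bbc3 and Bak1, whose levels were the most alike among the members, and Bid and Bcl2, which were called in 7 of the 8 comparisons with day 0. Capitals mark matches, and each sequence runs 5′ to 3′ along the gene's strand.
Bbc3, chr7:16310181-16310480, plus strand: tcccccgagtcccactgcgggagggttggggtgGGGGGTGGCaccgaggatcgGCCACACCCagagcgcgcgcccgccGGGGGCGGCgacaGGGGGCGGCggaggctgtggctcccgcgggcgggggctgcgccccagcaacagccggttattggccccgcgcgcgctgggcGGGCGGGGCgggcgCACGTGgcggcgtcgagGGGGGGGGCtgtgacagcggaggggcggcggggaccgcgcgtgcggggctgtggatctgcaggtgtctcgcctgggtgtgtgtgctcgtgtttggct
Bak1, chr17:27028578-27028877, minus strand: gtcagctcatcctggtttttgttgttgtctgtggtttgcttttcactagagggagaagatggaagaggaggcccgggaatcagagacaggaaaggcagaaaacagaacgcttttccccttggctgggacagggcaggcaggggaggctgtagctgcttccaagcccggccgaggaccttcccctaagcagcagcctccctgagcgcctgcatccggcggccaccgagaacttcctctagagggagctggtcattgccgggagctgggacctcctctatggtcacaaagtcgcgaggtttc
Bid, chr6:120916775-120917074, minus strand: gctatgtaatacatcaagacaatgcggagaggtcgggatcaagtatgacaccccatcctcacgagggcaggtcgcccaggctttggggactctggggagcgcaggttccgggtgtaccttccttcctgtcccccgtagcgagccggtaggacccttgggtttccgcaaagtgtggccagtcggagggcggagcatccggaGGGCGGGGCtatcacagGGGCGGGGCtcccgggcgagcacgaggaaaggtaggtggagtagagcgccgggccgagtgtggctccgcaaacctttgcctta
Bcl2, chr1:106714241-106714540, minus strand: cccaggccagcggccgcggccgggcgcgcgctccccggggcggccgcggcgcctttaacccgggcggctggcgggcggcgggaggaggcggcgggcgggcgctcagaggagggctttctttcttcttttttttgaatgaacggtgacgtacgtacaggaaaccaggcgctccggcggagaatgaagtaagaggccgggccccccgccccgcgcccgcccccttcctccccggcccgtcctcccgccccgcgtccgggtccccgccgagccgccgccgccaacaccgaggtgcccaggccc
The Bbc3 window, 1 of 3 for this gene, holds 1 E-box and 6 Klf-type boxes, and the Bid window holds 2 Klf-type boxes. A match is a string of letters and does not show a bound site.

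Bid was higher than on day 0 in 7 of 8 comparisons, Bcl2 was lower in 7 and Bcl2l1 in 6, Bbc3 was highest on day 4 in both origins, and no change of Bax against day 0 was called. Within an origin these comparisons share the day 0 libraries. Shares in brackets are those of all genes tested that were called in the same direction. Against day 0, of 9 tested members, MEF-derived cells had 1 higher (20.6%) and 3 lower (23.8%) on day 2, 3 higher (27.9%) and 2 lower (31.1%) on day 4, 1 higher (28.7%) and 3 lower (28.9%) on day 8 and 0 higher (26.3%) and 3 lower (24.6%) on day 12. NPC-derived cells had 1 higher (17.8%) and 3 lower (16.9%) on day 2, 2 higher (21.1%) and 2 lower (19.3%) on day 4, 3 higher (31.1%) and 2 lower (30.4%) on day 8 and 3 higher (24.1%) and 2 lower (23.5%) on day 12. With 9 members, a count of 1 to 3 in a direction lies near these shares and is not a result about the family. The median change of the members ran from -0.62 on MEF day 12 to 0.58 on NPC day 8, against 0.10 and -0.02 for all genes tested there.

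**Figure D1:**
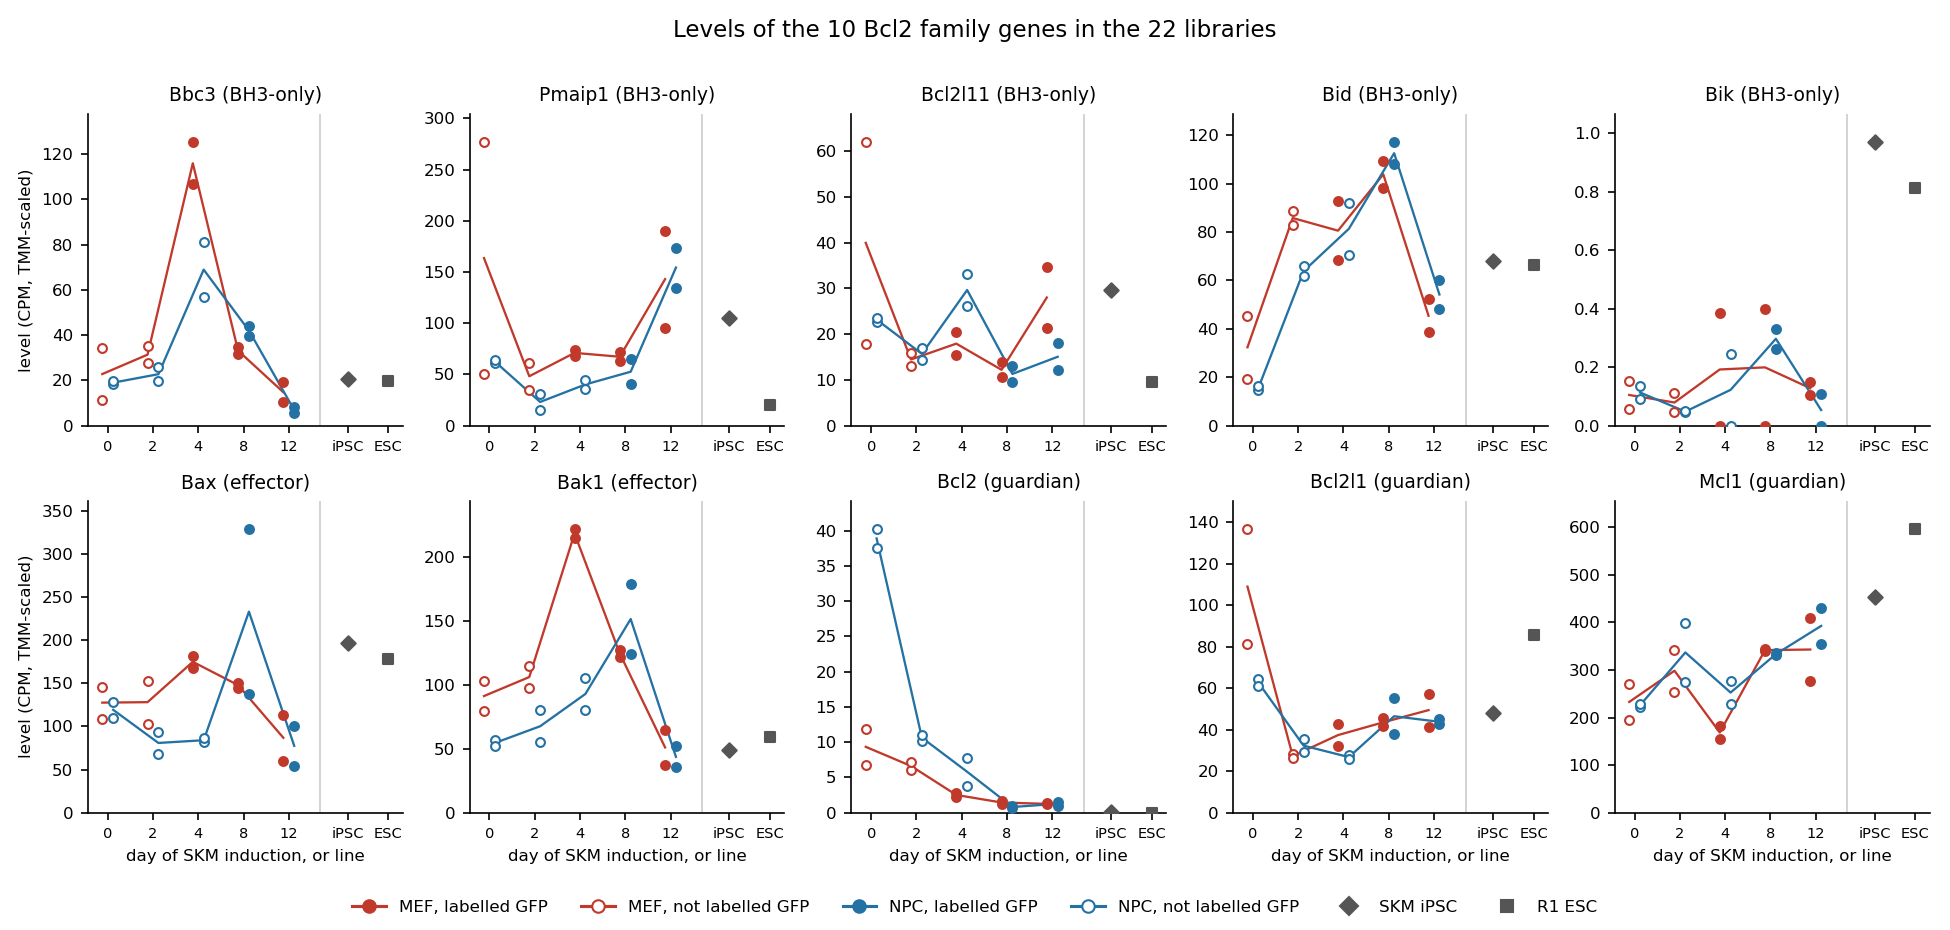
Level of each gene in CPM by day of reprogramming (0, 2, 4, 8, 12) in MEF-derived (red) and NPC-derived (blue) libraries, with SKM iPSC (diamond) and R1 ESC (square). Points are single libraries, filled where the title has GFP, and lines join the means of 2 libraries. Bbc3 reaches 125 and 107 CPM on MEF day 4, and Bcl2 lies at 0.591 and 0.994 CPM on NPC day 8.

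**Figure D2:**
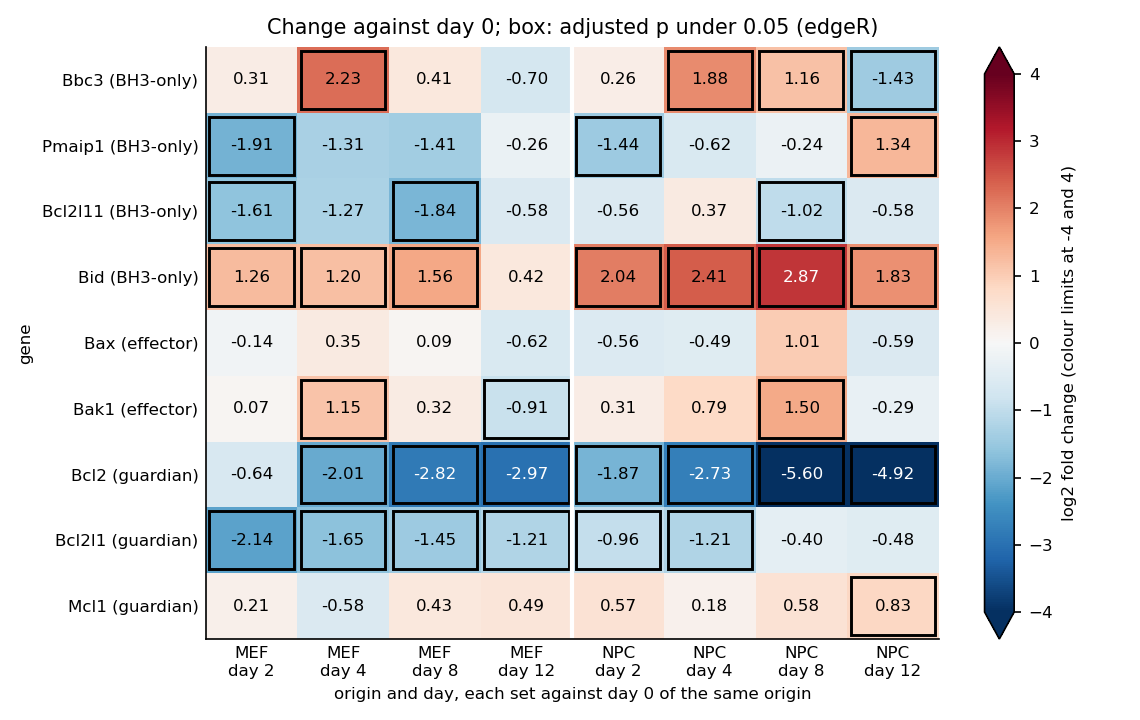
Log2 fold change of the 9 tested genes on days 2, 4, 8 and 12 against day 0 of the same origin, as colours with the value in each cell. Boxes mark an adjusted p under 0.05. Bid is boxed as higher in 7 of the 8 columns and Bcl2 as lower in 7 of the 8.

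Bbc3 encodes Puma, a BH3-only protein that p53 induces. On days 0, 2, 4, 8 and 12 its MEF-derived libraries held 34.3 and 11.3, 35.1 and 27.6, 125 and 107, 34.6 and 31.7, and 19.3 and 10.3 CPM. Its NPC-derived libraries held 18.2 and 19.8, 25.9 and 19.6, 81.1 and 56.7, 44.2 and 39.8, and 8.12 and 5.73 CPM on these days. The day 4 libraries stood above all others of their origin, and the NPC day 12 libraries were the lowest of all 22. On day 4 Bbc3 rose against day 0 by 2.23 ± 0.48 (adjusted p = 0.00306) in MEF-derived and by 1.88 ± 0.30 (adjusted p = 0.0011) in NPC-derived cells. It was also higher on NPC day 8, by 1.16 ± 0.30 (adjusted p = 0.00703), and lower on NPC day 12, at -1.43 ± 0.30 (adjusted p = 0.00348). The day 8 call ended without NPC day 0 replicate 1 (1.06, adjusted p = 0.0643), and the other 3 calls held without any single library. Without the NPC day 4 library marked feeder the day 4 change was 1.55, adjusted p = 0.00986.

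Neighbouring days were compared after the levels had been seen. Of the 9 tested members, 2 higher (10.5%) and 0 lower (10.9%) were called on MEF day 4 against day 2, 1 higher (11.1%) and 1 lower (8.68%) on MEF day 8 against day 4, 1 higher (1.68%) and 0 lower (0.546%) on NPC day 4 against day 2, and 2 higher (15.4%) and 2 lower (17.2%) on NPC day 8 against day 4. Bbc3 was higher on day 4 than on day 2 by 1.92 ± 0.47 (adjusted p = 0.0215) in MEF-derived and by 1.62 ± 0.30 (adjusted p = 0.0344) in NPC-derived cells, and lower on MEF day 8 than on day 4, at -1.82 ± 0.47 (adjusted p = 0.0249). Each MEF call ended without any one of the 4 libraries compared, with values of 1.76 to 2.10, adjusted p up to 0.152, for day 4 and -1.95 to -1.70, adjusted p up to 0.156, for day 8. The NPC call ended without either library of NPC days 0, 2 or 12 or without NPC day 4 replicate 1 (1.33 to 1.85, adjusted p up to 0.227). Between days 12 and 8, 0 higher (7.33%) and 1 lower (4.1%) were called in MEF-derived and 1 higher (13.5%) and 4 lower (15.9%) in NPC-derived cells. On NPC day 12 Bbc3 was lower than on day 8, at -2.59 ± 0.31 (adjusted p = 0.00357), a call that ended without NPC day 12 replicate 2 (-2.37, adjusted p = 0.0537). All 5 calls of NPC day 12 against day 8 ended without that library.

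Pmaip1 encodes Noxa, a BH3-only protein that binds Mcl1. In the order of days 0, 2, 4, 8 and 12, its MEF-derived libraries held 50.5 and 277, 35 and 61.6, 73.7 and 68.5, 71.6 and 63, and 95.7 and 190.4 CPM. NPC-derived libraries held 61.3 and 64, 15.4 and 31, 44.4 and 36.1, 40.6 and 64.8, and 135 and 174 CPM. In NPC-derived cells the day 2 libraries were the lowest and the day 12 libraries the highest, without overlap with day 0. There Pmaip1 was lower on day 2, at -1.44 ± 0.34 (adjusted p = 0.0102), and higher on day 12, by 1.34 ± 0.34 (adjusted p = 0.00903) against day 0 and by 1.58 ± 0.34 (adjusted p = 0.0127) against day 8. The day 2 call ended without NPC day 0 replicate 2 or NPC day 2 replicate 1 (-1.43 to -1.03, adjusted p up to 0.0644). The day 12 call against day 0 ended without either NPC day 0 library or NPC day 12 replicate 2 (1.13 to 1.34, adjusted p up to 0.0726), and that against day 8 without NPC day 8 replicate 1 or NPC day 12 replicate 2 (1.29 to 1.37, adjusted p up to 0.108). On MEF day 2 it was lower than on day 0, at -1.91 ± 0.65 (adjusted p = 0.0372), but the ranges overlap and without MEF day 0 replicate 2 the value was -0.23, adjusted p = 0.706. That call also ended without any library of MEF days 2 or 4 or MEF day 8 replicate 2.

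Bcl2l11 encodes Bim, a BH3-only protein that FoxO factors induce. Its MEF-derived libraries held 62 and 18, 15.8 and 13.1, 15.4 and 20.5, 10.6 and 13.8, and 21.3 and 34.8 CPM on days 0, 2, 4, 8 and 12. NPC-derived libraries held 22.7 and 23.6, 17 and 14.4, 26.2 and 33.1, 9.66 and 13, and 12.1 and 18 CPM. The day 8 mean was the lowest of each course, and the 2 MEF day 0 libraries were far apart. Against day 0 Bcl2l11 was lower on MEF day 2, at -1.61 ± 0.51 (adjusted p = 0.0282), on MEF day 8, at -1.84 ± 0.52 (adjusted p = 0.0123), and on NPC day 8, at -1.02 ± 0.31 (adjusted p = 0.016). Without MEF day 0 replicate 1 the MEF values were -0.49, adjusted p = 0.33, and -0.72, adjusted p = 0.135. The MEF day 2 call also ended without either MEF day 2 library (-1.75, adjusted p = 0.0893, and -1.48, adjusted p = 0.127), and the MEF day 8 call without MEF day 8 replicate 1 (-1.69, adjusted p = 0.0806). The NPC day 8 call ended without either NPC day 0 library or NPC day 8 replicate 1 (-1.10 to -0.86, adjusted p up to 0.0764). On NPC day 8 it was also lower than on day 4, at -1.40 ± 0.31 (adjusted p = 0.00977), though not without NPC day 8 replicate 1 (-1.20, adjusted p = 0.0592).

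Bid encodes a BH3-only protein that caspase-8 cleaves into its active form, which links death receptors to the mitochondrion. On days 0, 2, 4, 8 and 12 its MEF-derived libraries held 19.3 and 45.5, 82.7 and 88.8, 68.3 and 92.8, 109 and 98.3, and 52.2 and 38.6 CPM. NPC-derived libraries held 14.8 and 16.3, 66 and 61.6, 92 and 70.6, 108 and 117, and 60.2 and 48.2 CPM. All 8 NPC-derived libraries after day 0 stood above both of day 0. In NPC-derived cells Bid rose by 2.04 ± 0.24, 2.41 ± 0.24, 2.87 ± 0.24 and 1.83 ± 0.23 on days 2, 4, 8 and 12 (adjusted p = 0.000291, 8.27e-05, 1.51e-05 and 0.000167), and each call held without any single library. In MEF-derived cells it rose by 1.26 ± 0.36, 1.20 ± 0.36 and 1.56 ± 0.37 on days 2, 4 and 8 (adjusted p = 0.0187, 0.017 and 0.00499), and the day 12 change of 0.42 ± 0.36 (adjusted p = 0.356) was not called. The day 8 call held without any single library. The day 2 call ended without MEF day 0 replicate 1 or either MEF day 2 library (0.74 to 1.31, adjusted p up to 0.0662), and the day 4 call without MEF day 0 replicate 1 or MEF day 4 replicate 3 (0.68 to 0.99, adjusted p up to 0.102). On NPC day 12 Bid was lower than on day 8, at -1.04 ± 0.23 (adjusted p = 0.013), though not without NPC day 12 replicate 2 (-0.90, adjusted p = 0.128).

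Bik, a BH3-only protein of the endoplasmic reticulum, was close to undetected. Its counts ran from 0 to 7 in the 20 libraries of the courses, against 18 in SKM iPSC and 16 in R1 ESC. The exact Poisson 95% intervals, which cover counting error only, were 10.7 to 28.4 counts in SKM iPSC and 9.15 to 26 counts in R1 ESC, above the count of every course library. For 7 counts, the highest of a course library, the interval was 2.81 to 14.4 counts and overlaps both. Fitted with no filter on low counts, Bik was lower on NPC day 12 than in the lines (-3.84, adjusted p = 0.0386), while MEF day 12 (adjusted p = 0.0909), MEF day 0 (adjusted p = 0.0587) and NPC day 0 (adjusted p = 0.0753) were not called.

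Bak1 encodes an effector that sits in the mitochondrial membrane. In the order of days 0, 2, 4, 8 and 12, its MEF-derived libraries held 79.6 and 103, 115 and 97.5, 215 and 222, 127 and 122, and 65 and 37.1 CPM. NPC-derived libraries held 56.5 and 52.4, 79.9 and 55.2, 105 and 80.4, 179 and 124, and 51.8 and 35.4 CPM. The MEF day 4 libraries were the highest of all, and in NPC-derived cells those of day 8 were. Against day 0 Bak1 rose on MEF day 4 by 1.15 ± 0.27 (adjusted p = 0.0052) and on NPC day 8 by 1.50 ± 0.31 (adjusted p = 0.00229), and both calls held without any single library. It was higher on MEF day 4 than on day 2 by 1.08 ± 0.27 (adjusted p = 0.0236), a call that ended without any one of the 4 libraries compared (0.96 to 1.20, adjusted p up to 0.16). On day 12 it was lower than on day 8, at -1.23 ± 0.28 (adjusted p = 0.0281) in MEF-derived and -1.79 ± 0.31 (adjusted p = 0.00739) in NPC-derived cells. The MEF call ended without any library of MEF days 4 or 8 or MEF day 12 replicate 2 (-1.27 to -0.82, adjusted p up to 0.216), and the NPC call without NPC day 12 replicate 2 (-1.55, adjusted p = 0.0835). On MEF day 12 it was below day 0, at -0.91 ± 0.27 (adjusted p = 0.0196), but not without MEF day 0 replicate 2 or MEF day 12 replicate 2 (-0.73 to -0.52, adjusted p up to 0.133). Over the means of the 12 groups, log2 levels of Bbc3 and Bak1 had a Pearson correlation of 0.86, the highest of the 45 pairs of members. The 12 points share libraries and scaling, so this is a description.

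Bax encodes the effector that moves from the cytosol to the mitochondrion. Its MEF-derived libraries held 146 and 109, 153 and 103, 182 and 168, 145 and 151, and 114 and 59.9 CPM on days 0, 2, 4, 8 and 12. NPC-derived libraries held 129 and 110.0, 94 and 67.8, 81.8 and 86.3, 329 and 138, and 101 and 54.1 CPM. NPC day 8 replicate 1 stood far above the rest. The change furthest from 0 against day 0 was 1.01 ± 0.42 (adjusted p = 0.0609), on NPC day 8. On NPC day 8 Bax was higher than on day 4, by 1.49 ± 0.43 (adjusted p = 0.026), and on NPC day 12 lower than on day 8, at -1.60 ± 0.43 (adjusted p = 0.0239). Without NPC day 8 replicate 1 these were 0.70, adjusted p = 0.207, and -0.79, adjusted p = 0.166. The first call also ended without either NPC day 4 library (1.47, adjusted p = 0.098, and 1.52, adjusted p = 0.101), and the other without NPC day 12 replicate 2 (-1.22, adjusted p = 0.181).

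Bcl2 is the founding guardian. On days 0, 2, 4, 8 and 12 its MEF-derived libraries held 6.77 and 11.9, 6.01 and 7.22, 2.18 and 2.83, 1.65 and 1.21, and 1.32 and 1.16 CPM. NPC-derived libraries held 37.6 and 40.2, 10.2 and 11.1, 3.82 and 7.76, 0.591 and 0.994, and 0.994 and 1.5 CPM. The NPC day 0 libraries stood above all others, and the libraries of days 8 and 12 of both origins lay below every earlier one. In NPC-derived cells the changes against day 0 were -1.87 ± 0.42, -2.73 ± 0.44, -5.60 ± 0.52 and -4.92 ± 0.49 on days 2, 4, 8 and 12 (adjusted p = 0.0076, 0.00107, 2.3e-05 and 3.86e-05). In MEF-derived cells they were -2.01 ± 0.48, -2.82 ± 0.50 and -2.97 ± 0.50 on days 4, 8 and 12 (adjusted p = 0.00518, 0.00102 and 0.000962), while that of day 2 was -0.64 ± 0.45 (adjusted p = 0.28). The NPC day 2 call ended without NPC day 0 replicate 2 (-1.84, adjusted p = 0.0604), and the other 6 calls held without any single library. On NPC day 8 Bcl2 was lower than on day 4, at -2.87 ± 0.48 (adjusted p = 0.00301), which also held without any single library.

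Bcl2l1 encodes Bcl-xL, a guardian that binds both effectors. In the order of days 0, 2, 4, 8 and 12, its MEF-derived libraries held 81.2 and 137, 28.2 and 26.3, 32.2 and 42.5, 41.7 and 45.4, and 41.5 and 57.4 CPM. NPC-derived libraries held 64.5 and 60.9, 29 and 35.6, 27.8 and 25.7, 55.2 and 37.8, and 44.9 and 42.6 CPM. In each origin both day 0 libraries stood above every later one. The MEF changes against day 0 were -2.14 ± 0.30, -1.65 ± 0.30, -1.45 ± 0.30 and -1.21 ± 0.29 on days 2, 4, 8 and 12 (adjusted p = 0.000571, 0.0012, 0.00234 and 0.00722). The day 12 call ended without MEF day 12 replicate 1 (-0.94, adjusted p = 0.058), and the other 3 held without any single library. The NPC changes were -0.96 ± 0.26 (adjusted p = 0.0174) on day 2 and -1.21 ± 0.26 (adjusted p = 0.00507) on day 4, and those of day 8 (-0.40 ± 0.26) and day 12 (-0.48 ± 0.26) were not called. The day 2 call ended without either NPC day 0 library or NPC day 2 replicate 1 (-1.02 to -0.83, adjusted p up to 0.103). On NPC day 8 it was higher than on day 4 by 0.80 ± 0.26 (adjusted p = 0.0392), a call that ended without any library of NPC days 0, 4 or 12 or NPC day 8 replicate 1 (0.48 to 0.88, adjusted p up to 0.183). Gene counts do not separate Bcl-xL from the short splice form of the gene.

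Mcl1 encodes a short-lived guardian. Its MEF-derived libraries held 194 and 271, 254 and 342, 154 and 183, 343 and 340.3, and 276 and 409.8 CPM on days 0, 2, 4, 8 and 12. NPC-derived libraries held 223 and 228, 274 and 399, 228 and 277, 335 and 331, and 355 and 429.9 CPM. Both lines, with 454 CPM in SKM iPSC and 596 CPM in R1 ESC, stood above all 20 course libraries. Against day 0, Mcl1 was called on NPC day 12 only, by 0.83 ± 0.24 (adjusted p = 0.0175), and not without either NPC day 0 library or NPC day 12 replicate 2 (0.68 to 0.83, adjusted p up to 0.126). On MEF day 8 it was higher than on day 4 by 1.00 ± 0.28 (adjusted p = 0.0303), a call that ended without any one of the 4 libraries compared (0.88 to 1.11, adjusted p up to 0.209).

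**Figure D3:**
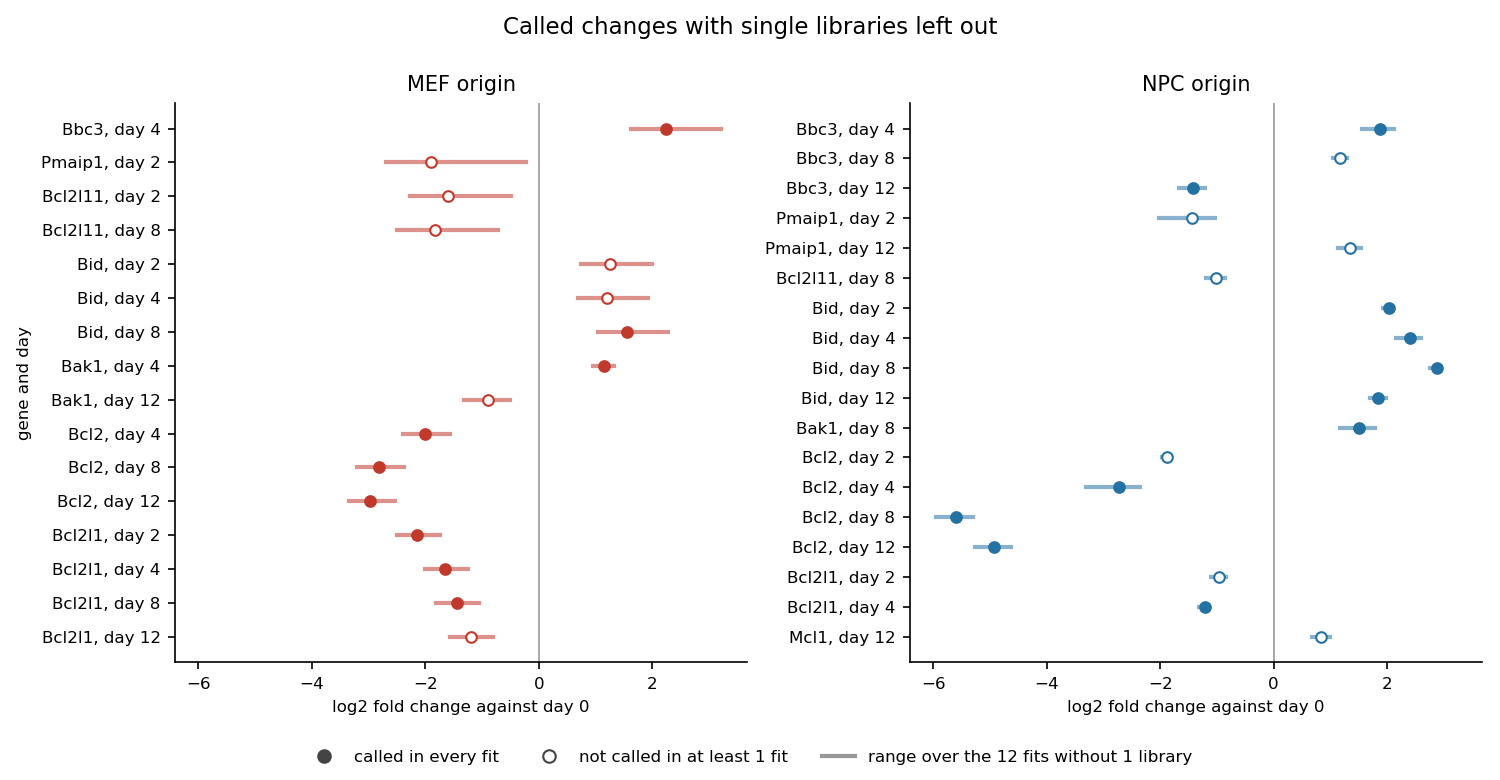
Called log2 fold changes against day 0 in MEF-derived (red) and NPC-derived (blue) cells, one line per gene and day. Points are values from all 12 libraries of the fit, bars span the fits without 1 library each, and open points lost the call in at least 1 of them. The bar of Pmaip1 on MEF day 2 runs from -2.69 to -0.23, and that of Bid on NPC day 8 from 2.75 to 2.92.

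Day 12 cells were set against the mean of the 2 pluripotent lines. Of 9 tested members, 1 higher (23.5%) and 1 lower (17.9%) were called on MEF day 12 and 2 higher (21.4%) and 2 lower (18.3%) on NPC day 12. Bcl2 was higher on both, with 48 counts over 2 libraries on MEF day 12 and 46 counts over 2 libraries on NPC day 12. The lines held 2 counts in SKM iPSC and 0 in R1 ESC. For that count of 0 the exact Poisson 95% interval reached 3.69 counts, and 3 counts in R1 ESC equal 0.152 CPM. The ratio of scaled counts over the lines was 23.6 for MEF day 12 (95% counting interval 6.2 to 201) and 23.9 for NPC day 12 (6.26 to 203). Bax was lower, with 114 and 59.9 CPM on MEF day 12 and 101 and 54.1 CPM on NPC day 12, against 197 CPM in SKM iPSC and 178 CPM in R1 ESC. All 4 of these day 12 libraries lay below both lines. The differences were -1.08 ± 0.32 (adjusted p = 0.0224) for MEF and -1.27 ± 0.43 (adjusted p = 0.0373) for NPC. The MEF call ended without MEF day 12 replicate 2 or SKM iPSC (-1.03 to -0.64, adjusted p up to 0.148), and the NPC call without either line, either NPC day 0 library, NPC day 4 replicate 2 or NPC day 12 replicate 2 (-1.37 to -0.89, adjusted p up to 0.232).

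On NPC day 12 Bbc3 was also lower, at 8.12 and 5.73 CPM, against 20.5 CPM in SKM iPSC and 19.7 CPM in R1 ESC (-1.53 ± 0.31, adjusted p = 0.00328), and this held without any single library. Pmaip1 was higher there by 1.74 ± 0.35 (adjusted p = 0.00328). The lines differ in this gene, with 105 CPM in SKM iPSC and 20.6 CPM in R1 ESC, and without R1 ESC the difference was 0.54, adjusted p = 0.372. Bcl2l11 also differed between them, at 29.7 CPM in SKM iPSC and 9.55 CPM in R1 ESC, with no replicate check. Bid, Bak1, Bcl2l1 and Mcl1 were not called on day 12 of either origin, with differences between -0.57 ± 0.27 for Mcl1 and -0.04 ± 0.27 for Bak1, both on MEF day 12.

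**Figure D4:**
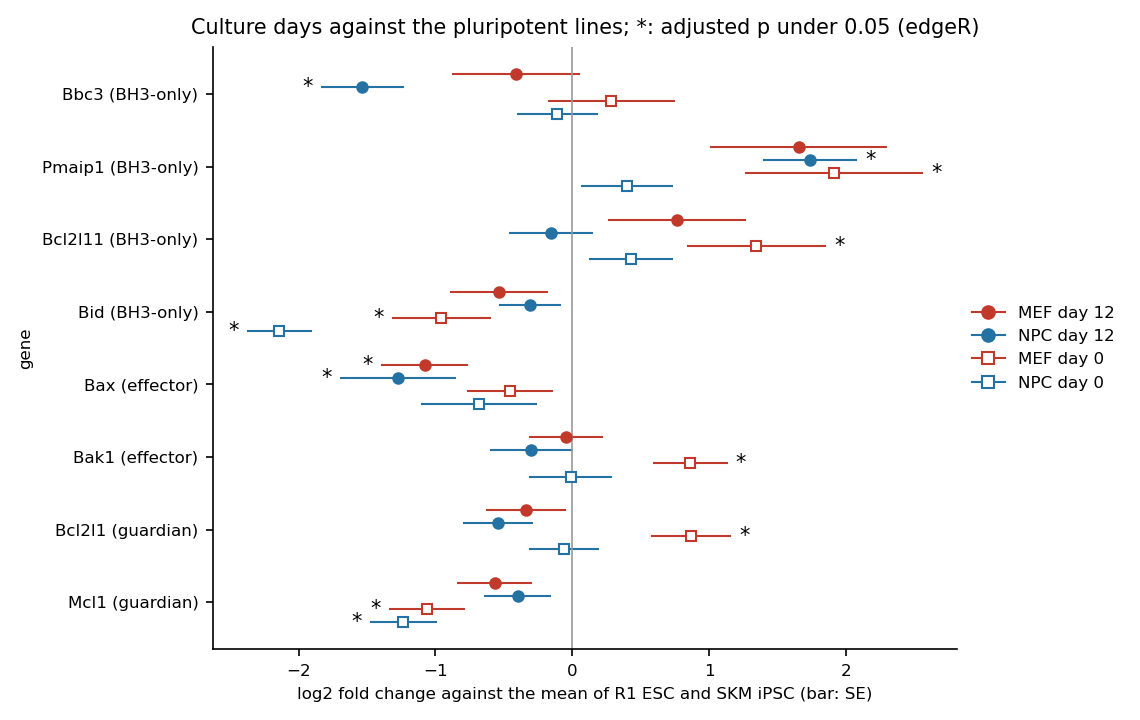
Log2 fold change of 8 genes on MEF day 12, NPC day 12, MEF day 0 and NPC day 0 against the mean of SKM iPSC and R1 ESC, with bars of 1 SE. Stars mark an adjusted p under 0.05. Bcl2, with 2 counts in the lines, and Bik are left out, and Bax on day 12 lies at -1.08 for MEF and -1.27 for NPC.

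Of 9 tested members, 5 higher (30.5%) and 2 lower (28.1%) were called between MEF day 0 and the lines, and 1 higher (27.5%) and 2 lower (26%) between NPC day 0 and the lines. Bcl2 was higher on both, with 341 counts over 2 libraries on MEF day 0 and 1718 counts over 2 libraries on NPC day 0, against 2 counts in the lines, which gave ratios of 176 (48.3 to 1457) and 744 (206 to 6152). Mcl1 was lower, at -1.06 ± 0.28 (adjusted p = 0.00788) on MEF day 0 and -1.23 ± 0.25 (adjusted p = 0.00216) on NPC day 0, and Bid was lower on NPC day 0, at -2.14 ± 0.24 (adjusted p = 6.79e-05). These 3 calls held without any single library, but that of Mcl1 on MEF day 0 ended when only the groups compared were fitted (-1.05, adjusted p = 0.128). On MEF day 0, Pmaip1 (1.91 ± 0.65), Bak1 (0.86 ± 0.27) and Bcl2l1 (0.87 ± 0.29) were called higher. Without MEF day 0 replicate 2 they were not, at 0.24, 0.69 and 0.47, nor was Pmaip1 without R1 ESC (0.72), nor Bak1 and Bcl2l1 without SKM iPSC (0.70 and 0.42). Bcl2l11 (1.35 ± 0.51) and Bid (-0.96 ± 0.36) lost their calls without MEF day 0 replicate 1 (0.22 and -0.43), without R1 ESC (0.51 and -0.99) and without any library of MEF days 2, 4 or 8. Bid lost it without SKM iPSC as well (-0.97).

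MEF-derived and NPC-derived cells were compared on days 0 and 12, and their changes since day 0 on days 2, 8 and 12, when the titles of both origins agree in GFP. On day 0, of 9 tested members, 2 higher (16.3%) and 1 lower (17.4%) were called in MEFs against NPCs. Bcl2 was lower in MEFs, at -2.03 ± 0.41 (adjusted p = 0.00162), which held without any of the 22 libraries. Bcl2l1 was higher by 0.83 ± 0.27 (adjusted p = 0.0277) and Bid by 1.09 ± 0.32 (adjusted p = 0.0164). Both calls ended without MEF day 0 replicate 2 or either NPC day 0 library, with values of 0.41 to 0.85, adjusted p up to 0.332, for Bcl2l1 and 0.35 to 1.16, adjusted p up to 0.409, for Bid. On day 12 edgeR called 0 higher (0%) and 0 lower (0%), and none of all 16188 genes tested. At an unadjusted p under 0.05 there were 862 of the 16188 genes. If no gene differed, a share of about 0.05 of them would pass that threshold. DESeq2 called 64 in MEF against NPC on day 12.

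The change of Bcl2 since day 0 differed between the origins. MEF minus NPC, it was 2.87 ± 0.63 (adjusted p = 0.00605) on day 8 and 2.04 ± 0.61 (adjusted p = 0.0347) on day 12, positive because the fall was smaller in MEF-derived cells. Bcl2 started lower in MEFs, and all 8 libraries of days 8 and 12 lay between 0.591 and 1.65 CPM. The day 8 difference held without any single library. The day 12 call ended without MEF day 0 replicate 1 or any library of NPC day 0 or of day 12 of either origin (1.68 to 2.36, adjusted p up to 0.14), and with no filter on low counts (2.05, adjusted p = 0.0597). Of 9 tested members, 0 higher (4.08%) and 0 lower (3.98%) were called on day 2, 1 higher (8.33%) and 0 lower (8.25%) on day 8 and 1 higher (8.53%) and 0 lower (6.19%) on day 12. On day 2 the difference for Bcl2 was 1.34 ± 0.57 (adjusted p = 0.176).

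Genes around the family were counted in 5 further lists, whose calls were not recomputed with libraries left out. Brackets give the share of all genes tested that was called in that direction. Most counts in the lists other than the death receptor list lay near these shares and are not results about the lists. The lists, that of death receptors included, were chosen with earlier results of these data known, so its counts are descriptions. The death receptor list also holds genes of necroptosis, such as Mlkl and Ripk3, so it does not measure the route through caspase-8 to Bid. It had 1 of 11 tested genes higher (26.3%) and 7 lower (24.6%) on MEF day 12 than on day 0 (median -1.10, against 0.10 over all genes tested). On NPC day 12 it had 4 of 10 tested genes higher (24.1%) and 3 lower (23.5%) (median -0.13, against 0.13 over all genes tested). Mlkl, the pore former of necroptosis, averaged 0.520 ± 0.309 CPM on MEF day 12 and 22.6 ± 0.334 CPM on MEF day 0 (SD, n = 2 each), with a log2 change of -5.50 ± 0.63 (adjusted p = 0.000115). Fas, a death receptor, averaged 2.37 ± 1.5 CPM on MEF day 12 and 20.5 ± 5.12 CPM on MEF day 0, a change of -3.18 ± 0.50 (adjusted p = 0.0007). Levels were lower on day 12 in NPC-derived cells too. Mlkl averaged 0.107 ± 0.151 CPM on NPC day 12 and 5.23 ± 0.132 CPM on NPC day 0. Fas averaged 1.55 ± 0.303 CPM on NPC day 12 and 7.48 ± 0.616 CPM on NPC day 0. Ripk3, a kinase of necroptosis, changed by -1.10 ± 0.32 (adjusted p = 0.0177) on MEF day 12 and by 2.63 ± 0.32 (adjusted p = 0.000123) on NPC day 12. The difference between these changes since day 0, MEF minus NPC, was -3.64 ± 0.44 (adjusted p = 0.000118). Ripk3 averaged 70.7 ± 0.724 CPM on MEF day 0 and 34.6 ± 13.9 CPM on MEF day 12. NPC-derived cells averaged 3.98 ± 0.619 CPM on day 0 and 24.1 ± 5.52 CPM on day 12. Tnfsf10 averaged 0.130 ± 0.103 CPM on MEF day 0 and 0.854 ± 0.284 CPM on MEF day 12. In NPC-derived cells Tnfsf10 averaged 0.0227 ± 0.0322 CPM on day 0 and 0.511 ± 0.488 CPM on day 12. On day 0 the death receptor list had 9 of 11 tested genes higher (16.3%) and 0 lower (17.4%) in MEFs than in NPCs, and 9 of 11 tested genes higher (30.5%) and 0 lower (28.1%) in MEFs than in the lines. These counts and that of MEF day 12 share the same 2 MEF day 0 libraries, which differed by a median of 0.45 log2 units per gene.

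The wider Bcl2 family had 3 of 10 tested genes higher (26.3%) and 2 lower (24.6%) on MEF day 12 than on day 0 and 3 of 10 tested genes higher (24.1%) and 0 lower (23.5%) on NPC day 12. Hrk, another BH3-only gene, was at 0 counts in MEFs on day 0 and averaged 10.3 ± 0.307 CPM on MEF day 4 and 30.6 ± 1.64 CPM on NPC day 4, against 3.27 ± 1.94 CPM on NPC day 0 (SD, n = 2 each). The NPC day 4 change was 3.24 ± 0.84 (adjusted p = 0.0127). On day 2, where its libraries were far apart, Hrk averaged 9.69 ± 10.2 CPM for MEF and 23.2 ± 24 CPM for NPC. By day 12 it averaged 3.21 ± 1.35 CPM for MEF and 3.76 ± 1.26 CPM for NPC. Bcl2l14 lay at 10.3 CPM in SKM iPSC and 12.7 CPM in R1 ESC, and at 0.408 ± 0.205 CPM on MEF day 12. Bnip3, a mitophagy gene, averaged 148 ± 14.9 CPM on NPC day 12 and 24.5 ± 14.1 CPM on NPC day 0, a change of 2.63 ± 0.67 (adjusted p = 0.0092). Bad averaged 28.0 ± 10.7 CPM on MEF day 0 and 10.8 ± 4.55 CPM on MEF day 12. In NPC-derived cells Bad averaged 17.2 ± 3.11 CPM on day 0 and 10.2 ± 4.76 CPM on day 12. The apoptosome and caspase list had 5 of 18 tested genes higher (26.3%) and 4 lower (24.6%) on MEF day 12 than on day 0, and 6 of 18 tested genes higher (24.1%) and 6 lower (23.5%) on NPC day 12. Birc3 averaged 15.7 ± 2.66 CPM on MEF day 0 and 9.91 ± 0.00702 CPM on MEF day 12. In NPC-derived cells Birc3 averaged 1.52 ± 0.104 CPM on day 0 and 8.12 ± 0.168 CPM on day 12. Casp6 averaged 23.4 ± 9.18 CPM on MEF day 0 and 4.68 ± 0.497 CPM on MEF day 12. In NPC-derived cells Casp6 averaged 15.1 ± 1.62 CPM on day 0 and 5.12 ± 0.650 CPM on day 12. Casp9, the initiator caspase of the apoptosome, changed by -1.28 ± 0.27 (adjusted p = 0.00342) on MEF day 12 and by -1.88 ± 0.29 (adjusted p = 0.000557) on NPC day 12. Its level was 10.9 ± 0.477 CPM on MEF day 12 and 8.23 ± 0.627 CPM on NPC day 12, against 39.5 CPM in SKM iPSC and 35.7 CPM in R1 ESC. Endog averaged 2.55 ± 0.516 CPM on MEF day 0 and 4.08 ± 0.554 CPM on MEF day 12. In NPC-derived cells Endog averaged 1.18 ± 0.506 CPM on day 0 and 3.80 ± 0.0703 CPM on day 12.

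The p53 list had 3 of 17 tested genes higher (26.3%) and 6 lower (24.6%) on MEF day 12 than on day 0, and 4 of 17 tested genes higher (24.1%) and 4 lower (23.5%) on NPC day 12. On day 4, when Bbc3 was highest, it had 3 of 17 tested genes higher (27.9%) and 6 lower (31.1%) in MEF-derived and 5 of 17 tested genes higher (21.1%) and 2 lower (19.3%) in NPC-derived cells. Perp, a p53 target of cell contacts, changed by 3.12 ± 0.66 (adjusted p = 0.00333) on MEF day 12 and 4.24 ± 0.27 (adjusted p = 4.12e-06) on NPC day 12. Gadd45a averaged 27.4 ± 21.2 CPM on MEF day 0 and 4.03 ± 0.847 CPM on MEF day 12 (SD, n = 2 each). In NPC-derived cells Gadd45a averaged 9.35 ± 0.274 CPM on day 0 and 5.49 ± 0.197 CPM on day 12. Btg2 averaged 150 ± 14.7 CPM on MEF day 0 and 341 ± 60.3 CPM on MEF day 12. In NPC-derived cells Btg2 averaged 57.2 ± 18.4 CPM on day 0 and 267 ± 57.5 CPM on day 12. The list of regulators had 2 of 17 tested genes higher (26.3%) and 4 lower (24.6%) on MEF day 12 than on day 0, and 4 of 17 tested genes higher (24.1%) and 2 lower (23.5%) on NPC day 12. Myc, whose counts may hold transgene and endogenous transcripts alike, averaged 1564 ± 74.4 CPM on MEF day 4 and 1857 ± 256 CPM on NPC day 4, against 58.8 ± 0.150 CPM on MEF day 0 and 62.5 ± 7.55 CPM on NPC day 0 (SD, n = 2 each). Stat3 changed by -2.20 ± 0.27 (adjusted p = 0.000154) on MEF day 12 and -1.38 ± 0.33 (adjusted p = 0.00601) on NPC day 12. Trp73 averaged 0.0286 ± 0.0405 CPM on MEF day 0 and 1.28 ± 0.321 CPM on MEF day 12. In NPC-derived cells Trp73 averaged 0.385 ± 0.158 CPM on day 0 and 0.949 ± 0.171 CPM on day 12. Ddit3 averaged 60.6 ± 5.07 CPM on MEF day 0 and 13.2 ± 0.991 CPM on MEF day 12. In NPC-derived cells Ddit3 averaged 11.6 ± 2.11 CPM on day 0 and 12.5 ± 0.659 CPM on day 12.

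For the 5 members whose group means span at least 2 log2 units, the most alike genes over the 12 groups were sought among 10798 genes. By Pearson correlation, Bcl2 was most like Pkia (0.98), Ptk2 (0.98) and Pogk (0.97), and Bak1 most like Tmem120a (0.97), Drap1 (0.96) and Calm3 (0.96). Bid was most like Spryd4, Wdr92 and Fpgs (0.96 each), Bbc3 most like Wrap73 (0.95), Fbxo44 (0.94) and Uba1 (0.94), and Pmaip1 most like Rap1gap2 (0.87), Snx6 (0.82) and Inppl1 (0.80). These values were picked as the highest among 10798 genes, over 12 points that share libraries and scaling. They are descriptions and do not show shared regulation.

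The authors' deposited table covers 10 of these comparisons, and there every gene with an absolute log2 fold change under 1 has a p of 1. The authors' deposited table has 12 pairs of member and comparison with an adjusted p under 0.05, and 40 were called here in the same comparisons. Calls here were tested against no change, without a threshold on its size, so the counts are not alike. All 12 were among the 40, with the same sign, and they concern Bcl2, Bid and Bbc3. For NPC day 8 against day 0 the authors' deposited table gives log2 fold changes of -5.55 for Bcl2 and 2.85 for Bid.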

How the data were processed

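RNA-seq was analysed for 22 of the 33 samples; the ChIP samples were not used here. Per the submitters' processing notes, CASAVA 1.8.4, FastQC and STAR 2.5.1b were among the tools and mm9 the build; the counter is not given in the sources used here. The authors deposited counts per gene for each library, whole numbers although the name of the workbook gives another unit, and a table of log2 fold changes and p-values of their own. The 37999 lines held 37620 genes, 307 of them repeated with identical counts and kept once, and 16079 without a symbol. No 2 libraries were identical.

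Genes with at least 1 CPM in at least 2 libraries were fitted with edgeR 4.0.16 (quasi-likelihood, TMM) in R 4.3.3, 12 libraries per origin, lines included, or all 22 between origins. Each line was a group of its own, so replicated groups set its spread. P-values were adjusted by Benjamini-Hochberg over all genes of a fit. DESeq2 1.42.0, other scalings, filters and fits without single libraries were alternatives. Simulated counts, in which 200 genes were given a change of 2 log2 units, tested the scripts: 167 were called with 12 others for MEF day 12 against day 0 (14473 genes), 151 with 6 others for NPC (14781) and 59 with 3 others for the day 12 interaction (15106).

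Members and lists were chosen with earlier results of these data known, and comparisons of day 4 with day 2 and day 8 with day 4 were added after seeing the data. Named were all members, up to 4 genes of each list with the largest called change on day 12 against day 0, and the 3 genes most like a member whose group means span at least 2 log2 units. Of 110 listed genes, 2 had no row. Intervals cover counting error only.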

Additional observations from a re-analysis of the deposited data

Results flagged for a closer look

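The change of Bcl2 since day 0 differed between the origins by a test of the difference itself, the interaction in edgeR's quasi-likelihood fit of all 22 libraries. MEF minus NPC, it was 2.87 ± 0.63 (adjusted p = 0.00605) on day 8 and 2.04 ± 0.61 (adjusted p = 0.0347) on day 12. Bcl2 held 6.77 and 11.9 CPM in MEFs and 37.6 and 40.2 CPM in NPCs on day 0. The day 8 call held without any single library. The day 12 call ended in 7 of 22 fits without 1 library (1.68 to 2.36, adjusted p up to 0.14) and with no filter on low counts (2.05, adjusted p = 0.0597).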

How the results depend on the processing

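Of 70 calls for members, 31 held in each fit without 1 library, 45 under every other setting, and no fit reversed one. RLE factors kept 70 of 70, upper quartile factors 68, DESeq2 70 and no filter 67, while fits of only the groups compared kept 52. Requiring 1 CPM in every library, which removes low genes, kept 53 of 55, and both lines as 1 group 12 of 16. The labels do not explain replicate numbers, and deviations of same-numbered libraries correlated between -0.061 and 0.595 over 20 pairs of groups. The replicate number as a block kept 49 of 54 calls and ended that of Bid in MEF day 4 against day 0 (adjusted p = 0.0897) and the 4 of MEF day 4 against day 2 and MEF day 8 against day 4. Brackets give values as reported. With DESeq2, members called were 2 (1) for MEF day 12 against day 8, 4 (2) for MEF day 4 against day 2, 2 (1) for NPC day 4 against day 2, 5 (3) for MEF against NPC on day 0, 1 (0) for Day 2 response, MEF minus NPC, 3 (1) for Day 8 response, MEF minus NPC and 2 (1) for Day 12 response, MEF minus NPC. With at least 1 CPM in every library, members called were 1 (2) for MEF day 12 against the lines, 2 (4) for NPC day 8 against day 4, 0 (1) for Day 8 response, MEF minus NPC and 0 (1) for Day 12 response, MEF minus NPC. With both lines as 1 group, members called were 4 (7) for MEF day 0 against the lines. With no filter, members called were 5 (1) for MEF day 12 against day 8. With only the groups compared in the fit, members called were 1 (4) for MEF day 2 against day 0, 3 (1) for MEF day 12 against day 8, 1 (7) for MEF day 0 against the lines, 4 (2) for MEF day 4 against day 2, 7 (4) for NPC day 4 against day 0, 3 (5) for NPC day 12 against day 8, 6 (3) for NPC day 0 against the lines, 0 (1) for NPC day 4 against day 2, 1 (4) for NPC day 8 against day 4 and 1 (3) for MEF against NPC on day 0. With the replicate number as a block, members called were 0 (2) for MEF day 4 against day 2, 0 (2) for MEF day 8 against day 4 and 2 (1) for Day 8 response, MEF minus NPC. Without 1 library at a time the counts ran from 1 to 4 for MEF day 2 against day 0, 4 to 6 for MEF day 4 against day 0, 3 to 5 for MEF day 8 against day 0, 2 to 6 for MEF day 12 against day 0, 0 to 5 for MEF day 12 against day 8, 1 to 3 for MEF day 12 against the lines, 4 to 7 for MEF day 0 against the lines, 0 to 4 for MEF day 4 against day 2, 0 to 3 for MEF day 8 against day 4, 1 to 4 for NPC day 2 against day 0, 4 to 5 for NPC day 4 against day 0, 3 to 6 for NPC day 8 against day 0, 3 to 5 for NPC day 12 against day 0, 0 to 5 for NPC day 12 against day 8, 2 to 5 for NPC day 12 against the lines, 3 to 5 for NPC day 0 against the lines, 0 to 1 for NPC day 4 against day 2, 1 to 5 for NPC day 8 against day 4, 1 to 5 for MEF against NPC on day 0, 0 to 0 for MEF against NPC on day 12, 0 to 2 for Day 2 response, MEF minus NPC, 1 to 4 for Day 8 response, MEF minus NPC and 0 to 3 for Day 12 response, MEF minus NPC. With DESeq2, calls among all genes were 3058 (1743) for MEF day 12 against day 8, 1472 (346) for NPC day 4 against day 2, 64 (0) for MEF against NPC on day 12 and 2068 (1304) for Day 2 response, MEF minus NPC. With at least 1 CPM in every library, calls among all genes were 5518 (8782) for MEF day 8 against day 0, 4504 (7773) for MEF day 12 against day 0, 3507 (6311) for MEF day 12 against the lines, 5550 (8942) for MEF day 0 against the lines, 1923 (3014) for MEF day 8 against day 4, 3037 (5407) for NPC day 2 against day 0, 3739 (6298) for NPC day 4 against day 0, 5892 (9578) for NPC day 8 against day 0, 3705 (7409) for NPC day 12 against day 0, 3334 (6173) for NPC day 12 against the lines, 4560 (8332) for NPC day 0 against the lines, 3054 (5073) for NPC day 8 against day 4, 2907 (5450) for MEF against NPC on day 0, 814 (1304) for Day 2 response, MEF minus NPC, 1761 (2685) for Day 8 response, MEF minus NPC and 1223 (2383) for Day 12 response, MEF minus NPC. With no filter, calls among all genes were 3436 (1743) for MEF day 12 against day 8, 694 (346) for NPC day 4 against day 2 and 166 (0) for MEF against NPC on day 12. With only the groups compared in the fit, calls among all genes were 4504 (6773) for MEF day 2 against day 0, 5131 (7773) for MEF day 12 against day 0, 5724 (8942) for MEF day 0 against the lines, 6828 (3014) for MEF day 8 against day 4, 1753 (4577) for NPC day 12 against day 8, 2 (346) for NPC day 4 against day 2, 1921 (5073) for NPC day 8 against day 4 and 748 (1304) for Day 2 response, MEF minus NPC. With the replicate number as a block, calls among all genes were 573 (3272) for MEF day 4 against day 2, 1653 (3014) for MEF day 8 against day 4 and 641 (346) for NPC day 4 against day 2. Fits of fewer groups have fewer libraries, and the block leaves MEF day 4 with 1 library. Other causes were not tested. Upper quartile factors shifted the median of all genes by -0.137 in NPC day 8 against day 0. The planned comparison of peaks at members was not run, by windows or stricter threshold, as no mm9 gene table was used.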
